A study of Mus musculus with 7 samples.

Results

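The genes described here are the axon guidance ligands and receptors of the mouse as measured in sorted pancreatic alpha cells: semaphorins, plexins, neuropilins, Eph receptors, ephrins, Slits, Robos, netrins and Unc5 receptors. Members were taken by a rule on gene symbols, which 70 of the 55536 genes in the count table met. The families themselves were picked with earlier results of these data known, so the share of members called is a description. Of these, 37 encode ligands and 33 encode receptors, although semaphorins and ephrins of the cell membrane can also signal into the cell that carries them.

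These families carry short-range signals between cells. Netrins act through Dcc and the Unc5 receptors, Slits through Robo receptors, semaphorins through plexins with neuropilins as co-receptors for most of class 3, and ephrins through Eph receptor tyrosine kinases. They are best known for steering growing axons, and in the islet, Robo receptors are known to keep endocrine cell types in their places and Eph and ephrin contacts to tune hormone release.

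Alpha cells are the islet cells that secrete glucagon. RNA was sequenced from 4 control libraries of genotype Nkx2.2+/+, with Gcg-iCre and Rosa26:tdTomato, and from 3 knockout (KO) libraries of genotype Nkx2.2fl/fl, also with Gcg-iCre and Rosa26:tdTomato. Both groups therefore carried the Cre recombinase driven by the glucagon gene (Gcg) and the red reporter, and cells were sorted from islets on red fluorescence. Per the design text, the strain was C57BL/6J. Age, sex, the number of mice per library and whether libraries came from separate mice are not given in the sources used here, so p-values measure the spread between these libraries. A Cre made from the glucagon gene marks any cell in which that gene has been active. In bulk libraries like these, fewer cells of a type and less RNA per cell cannot be told apart. One KO column carries a number that no KO title has, and it is called the unnumbered KO library.

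Library totals ran from 45483504 to 72456557 counts. Control 4, the deepest, had counts for 31024 genes against 23150 to 25873 in the other libraries. Calls of guidance genes that changed without it are therefore named. Transcripts of Nkx2-2, the targeted gene, ran from 8596 to 12297 normalized counts in controls and from 7534 to 7758 in KO libraries. Its log2 fold change, KO over control, was -0.45 (SE 0.13; DESeq2 adjusted p = 0.0218, edgeR adjusted p = 0.152). The KO mean was 73.2% of the control mean, and whole-gene counts do not show which exons remained. The 8 alpha cell markers, Gcg among them, had counts in every library. The female transcript Xist and the Y-linked Ddx3y showed that the libraries differed in sex make-up within both groups. Xist ran from 5.23 to 43226 in controls and from 808 to 43397 in KO libraries. Ddx3y was at 0 in controls 1 and 2 and at 3232 and 3057 in controls 3 and 4. KO 1 held both transcripts (Xist 43397, Ddx3y 610), as did KO 2 (25628 and 1308), so each held RNA of both sexes. Control 4 (1049 and 3057) and the unnumbered KO library (808 and 4287) held both with less Xist.

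Of the 70 genes, 60 had enough counts for an adjusted p-value, 9 had counts but no adjusted p-value, with at most 40 counts in any library, and Ntn5 had 0 counts in every library. A gene is called here when its DESeq2 p-value, adjusted by the Benjamini-Hochberg method over all 17571 genes tested, was under 0.05. Of the 60, 10 genes were called (16.7%), against 4.51% of all genes tested. Of the 10, 9 were higher in KO libraries, where 2.24% of all genes were called higher, and 1 was lower, where 2.27% were called lower. The genes that rose were the Unc5 receptors Unc5b, Unc5c and Unc5d, the plexin Plxna3, the neuropilin Nrp2, the Eph receptor Epha3, and the ligands Efnb3, Slit2 and Sema3c. The gene that fell was Robo2, the most abundant Robo receptor.

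Among the 60 genes, 32 had a log2 fold change above 0 and 28 below 0, and the median was 0.05, beside 0.01 over all genes tested. Receptors accounted for 7 of the 10 calls, out of 29 receptors with an adjusted p-value (24.1%). Ligands accounted for 3 out of 31 (9.68%), beside 4.51% of all genes tested. An unadjusted DESeq2 p under 0.05 was found for 21 genes, where 12.2% of all genes had one. In 15 of the 60 genes every KO library was above every control, where 6.07% of all genes tested were so placed, and in 6 every KO library was below every control, where 5.94% were. The 50 genes not called ran from -0.98 for Epha5 to 0.82 for Ephb4 on the log2 scale. The 9 with counts but no adjusted p-value were Epha6, Epha10, Ephb1, Efna3, Efna4, Robo4, Sema3d, Sema5b and Sema7a.

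The number of calls depended on the test. The quasi-likelihood test of edgeR called 2 of the genes, Plxna3 and Efnb3, where it called 1.05% of the 19310 genes it tested. Without KO 1, DESeq2 called 6 of the genes, all among the 10. Without control 4 it called 9, of which 8 were among the 10, Epha3 and Unc5d having lost their call. The other gene called without control 4 was Sema6a. Scaling by library totals, which moved the median log2 fold change of all genes up by 0.10, called 11 of the genes higher and 0 lower. Over all genes that scaling called 684 higher and 297 lower, beside 394 and 398 with the scaling used here.

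**Figure D1:**
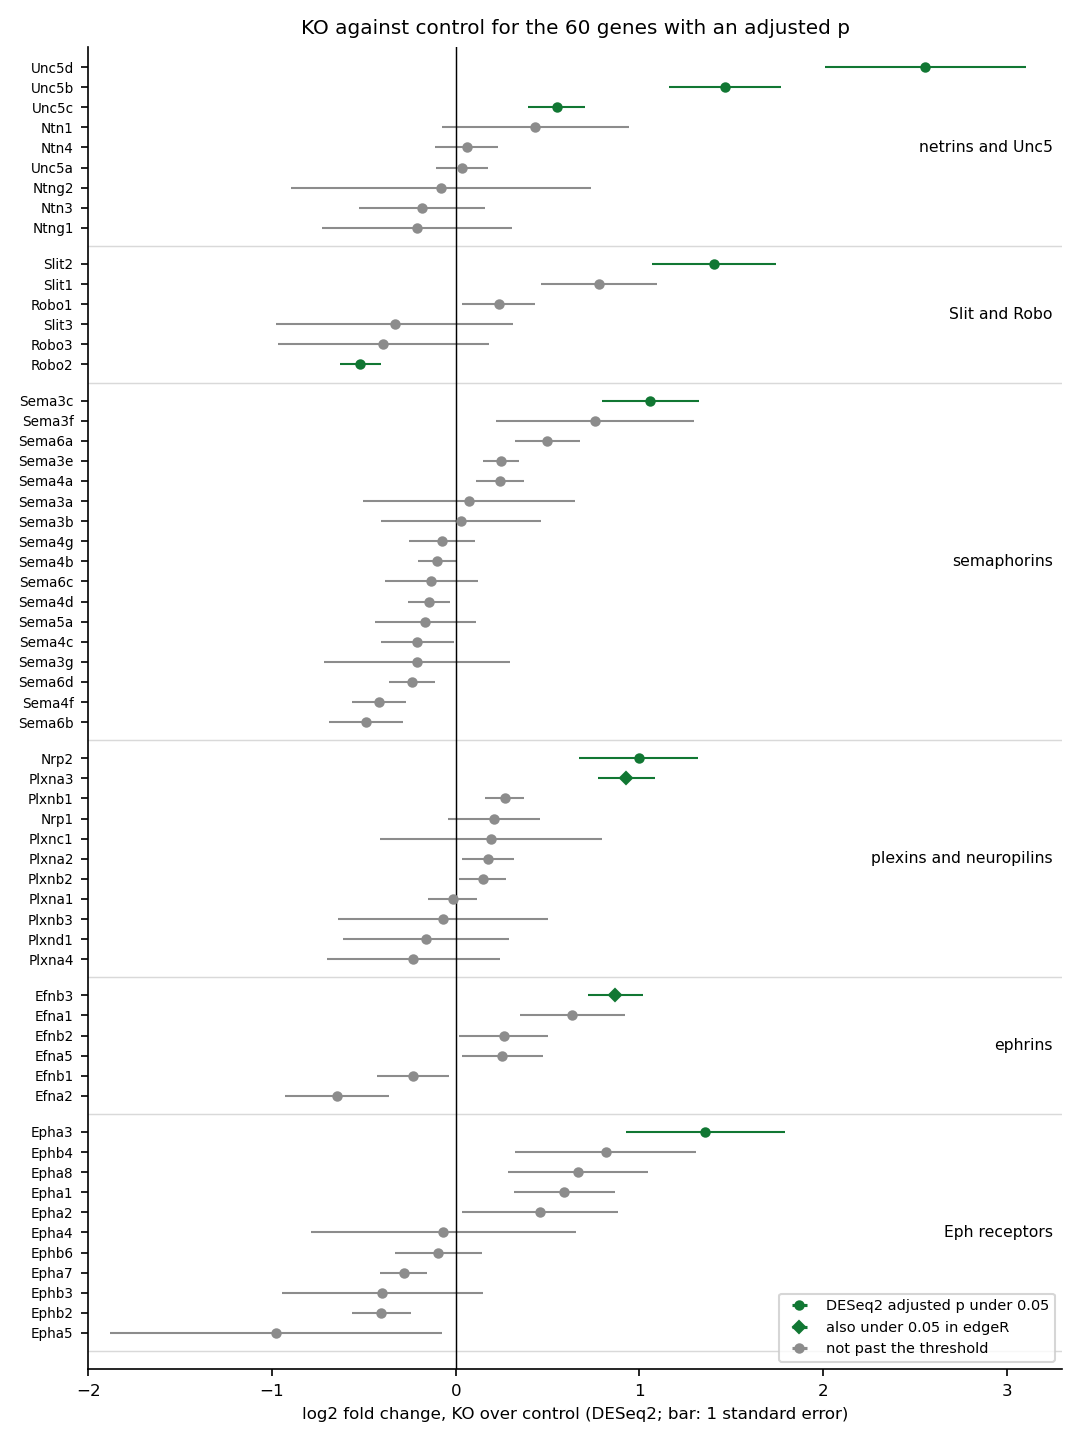
Log2 fold change of KO over control (x axis) for the 60 genes with an adjusted p-value, grouped by family, with bars of 1 standard error. Green marks the 10 genes called by DESeq2, the diamonds are Plxna3 and Efnb3, which edgeR called as well, and grey marks the 50 genes not called, which lie on both sides of 0.

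To compare genes with each other, normalized counts were divided by the exon length in kilobases (kb). On this per-kb scale the control means spanned from 2272 for Plxnb2 to 0 for Ntn5. In controls, 25 genes were above 100 normalized counts per kb, 22 lay from 10 to 100, and 23 were under 10. Plxnb2, a receptor for class 4 semaphorins, was first with 2272 ± 177 (SD, n = 4) per kb and made up 62.7% of the summed plexin level in controls. Robo2 followed with 1034 ± 79.8, then Unc5a with 675 ± 41.6 and the ephrin Efnb1 with 583 ± 55.8. The next 2, Ntn4 at 529 ± 59.4 and Plxnb1 at 529 ± 45.4, did not differ beyond their spread. Among the 10 called genes, Robo2 and Efnb3 were within the first 10 by control level, and Slit2, Epha3 and Unc5d ranked below 50.

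**Figure D2:**
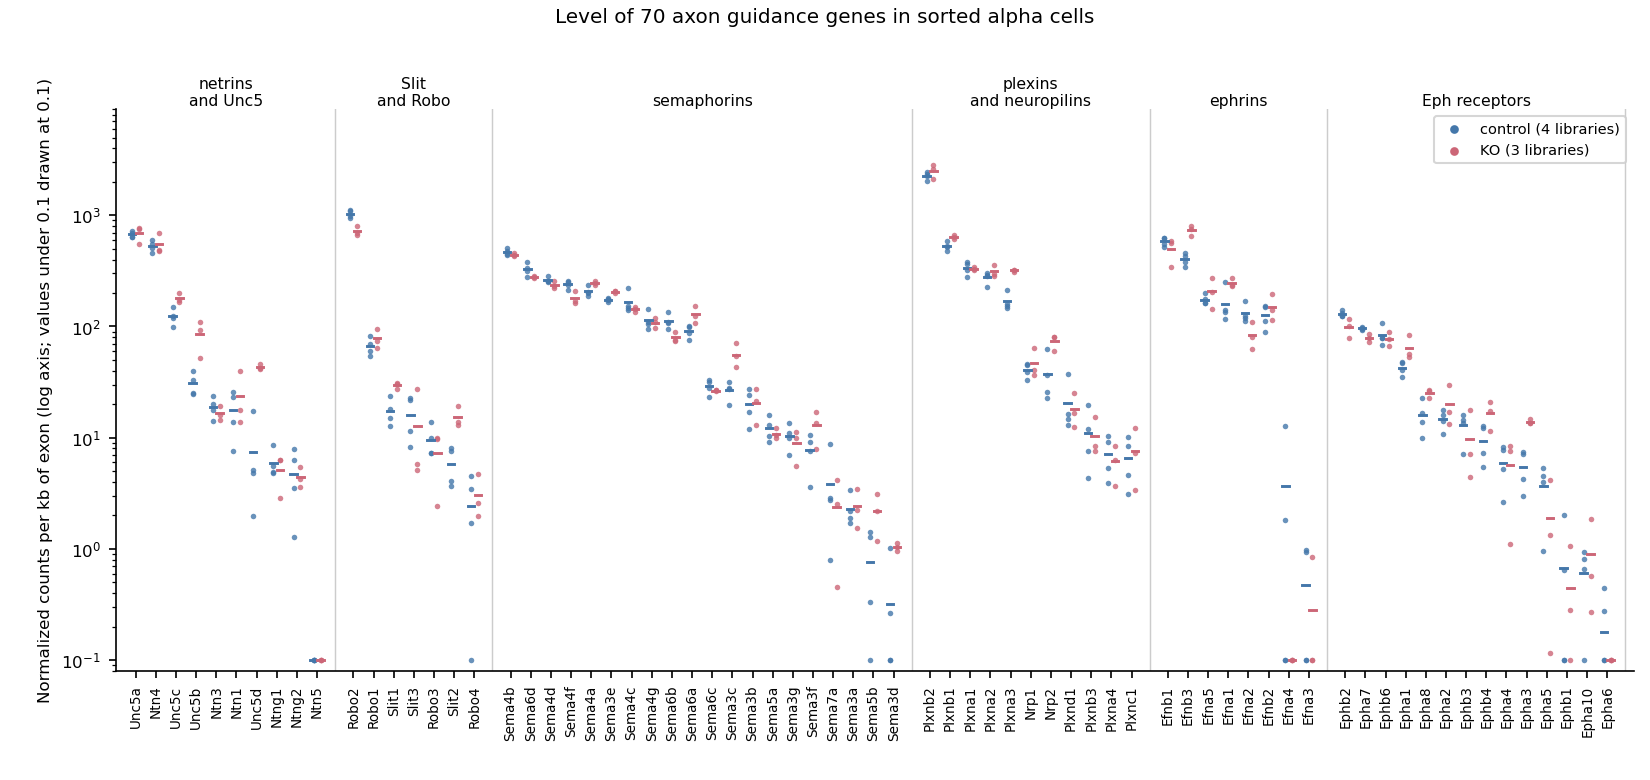
Normalized counts per kb of exon (y axis, logarithmic, values under 0.1 drawn at 0.1) of all 70 genes in each library, with a short line at each group mean, blue for 4 control and red for 3 KO libraries. Levels run from Plxnb2, at 2272 per kb in controls, down to Ntn5, which had no counts.

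The Unc5 receptors, which mediate repulsion by netrins, showed 3 calls out of 4 genes, all higher in KO libraries. Over all genes tested, 2.24% were called higher. Gene positions are the bounds in GENCODE M21 on GRCm38. Unc5b (chr10:60762593-60831581) had 205, 251, 157 and 156 normalized counts in the controls in numerical order. Its KO values, for KO 1, then KO 2, then the unnumbered library, were 582, 687 and 324, and later genes are given in this order. Every KO library was above every control, with the unnumbered KO library the lowest of the 3. Its log2 fold change was 1.46 (SE 0.31; DESeq2 adjusted p = 0.000136, edgeR adjusted p = 0.0547).

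Unc5d (chr8:28646717-29219636) had 47.7, 162, 18.3 and 44.8 normalized counts in the controls and 424, 390 and 385 in the KO libraries. The KO values lay close together, and the highest control, control 2, was well below the lowest of them. Its log2 fold change of 2.56 was the largest among the 10 (SE 0.55; DESeq2 adjusted p = 0.000204, edgeR adjusted p = 0.0973). With 1 library left out it ran from 2.24 without control 3 to 3.42 without control 2, the control with the highest value. Without control 4 the log2 fold change was 2.40 and the DESeq2 adjusted p was 0.0677.

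Unc5c (chr3:141465216-141834924) was the most abundant of the 3, at 2270, 2378, 1901 and 2871 normalized counts in controls and 3188, 3300 and 3852 in KO libraries. The groups did not overlap, but control 4 came near KO 1. Its log2 fold change was 0.55 (SE 0.16; DESeq2 adjusted p = 0.0149, edgeR adjusted p = 0.133). Leaving out 1 library at a time, it kept its DESeq2 call in 2 of 7 fits, those without control 2 and without control 4, with an adjusted p of up to 0.152, reached without the unnumbered KO library.

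Unc5a (chr13:54949411-55006018), the family member with the highest level, had 2664, 2906, 3011 and 2671 normalized counts in controls and 3154, 3185 and 2313 in KO libraries. The groups overlapped, the unnumbered KO library being the lowest of all 7, and the log2 fold change was 0.04 (SE 0.14; DESeq2 adjusted p = 0.998). The summed per-kb level of all 4 Unc5 genes was 836 ± 36.0 (SD, n = 4) for controls and 1000.3 ± 131 (SD, n = 3) for the KO, with overlapping groups. The 3 called genes made up 19.3% ± 3.07 of it in controls and 31.1% ± 3.17 in KO libraries, a description that follows from their calls.

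The netrin genes, counted here with the netrin-G genes Ntng1 and Ntng2, showed no call. Of these 6 genes, 5 had an adjusted p-value. DESeq2 and edgeR called 0 of the 5, and 0 had an unadjusted DESeq2 p under 0.05. Over all genes tested, DESeq2 called 4.51% and 12.2% had such a p, so 0 of 5 says little. Ntn4, a netrin known from basement membranes and the most abundant one here, had 1896, 2224, 2084 and 1714 normalized counts in controls and 1780, 2591 and 1820 in KO libraries. KO 2 was the highest library while the other 2 KO libraries lay within the control range. Ntn4 had a log2 fold change of 0.06 (SE 0.17; DESeq2 adjusted p = 0.998). Ntn1, the best-studied netrin, was at 17.6 ± 8.37 per kb in controls and 23.8 ± 14 in KO libraries.

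In the Slit and Robo family a ligand and a receptor were called in opposite directions. Robo2 (chr16:73891839-74411825) had 16122, 16702, 18493 and 18912 normalized counts in controls and 11763, 11385 and 13610 in KO libraries. Every KO library was below every control, and the KO mean was 69.8% of the control mean. Robo2 fell by 0.52 on the log2 scale (SE 0.11; DESeq2 adjusted p = 0.000174, edgeR adjusted p = 0.0594). The call held whichever of the 7 libraries was left out and was lost with library totals as the scaling, at a log2 fold change of -0.41 and a DESeq2 adjusted p of 0.0618.

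Robo1, at 66.4 ± 12 per kb in controls, was far less abundant than Robo2. It had 1343, 998, 1157 and 890 normalized counts in controls and 1583, 1230 and 1053 in KO libraries, which overlapped, and its log2 fold change was 0.23 (SE 0.20; DESeq2 adjusted p = 0.834). Robo2 made up 92.9% ± 1.12 of the summed per-kb Robo level in controls and 89.0% ± 2.45 in KO libraries, and these shares overlapped. The summed Robo level was 1112 ± 76.2 per kb in controls and 809.9 ± 63.0 in KO libraries, with no overlap between the groups.

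Slit2 (chr5:47983138-48307733), a secreted Robo ligand, had 103, 191, 204 and 94.0 normalized counts in controls and 332, 353 and 486 in KO libraries. All KO libraries were above all controls, the unnumbered KO library the highest. Slit2 had a log2 fold change of 1.41 (SE 0.34; DESeq2 adjusted p = 0.00172, edgeR adjusted p = 0.0914), and without the unnumbered KO library the DESeq2 adjusted p was 0.0653. Its level stayed low on the per-kb scale, at 5.82 ± 2.26 in controls and 15.4 ± 3.28 in KO libraries. Slit1 did not pass the threshold, with a log2 fold change of 0.78 (DESeq2 adjusted p = 0.184) and no overlap between groups.

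Among the plexins, the receptors that bind semaphorins, 1 of 9 was called (11.1%, beside 4.51% of all genes tested). Plxna3 (chrX:74329066-74344689) had 1263, 1676, 1147 and 1211 normalized counts in controls and 2453, 2558 and 2542 in KO libraries. The 3 KO libraries lay close together and well above control 2, the highest control. The log2 fold change was 0.93 (SE 0.15; DESeq2 adjusted p = 4.16e-07, edgeR adjusted p = 0.0190), and Plxna3 passed the threshold in all 18 alternatives. Plxna3 is X-linked. In controls, Plxna3 stood at 1263 and 1676 in the libraries with 43226 and 42539 normalized counts of Xist, and at 1147 and 1211 in those with 5.23 and 1049. In KO libraries it stood at 2453, 2558 and 2542, with Xist at 43397, 25628 and 808. The part of sex make-up in the Plxna3 values was not tested.

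The share of Plxna3 in the summed per-kb level of class A plexins was 21.3% ± 2.00 in controls and 33.0% ± 1.02 in KO libraries. Plxnb2 had 17543, 18861, 18100 and 15652 normalized counts in controls and 20080, 21987 and 16206 in KO libraries. KO 1 and KO 2 were above all controls and the unnumbered KO library lay inside their range, and the log2 fold change was 0.15 (SE 0.13; DESeq2 adjusted p = 0.851). Plxnb1, a receptor for Sema4d, had 4588, 5646, 5044 and 5003 against 6124, 5811 and 6359. Its groups did not overlap, but its log2 fold change of 0.27 (SE 0.11) did not pass the threshold (DESeq2 adjusted p = 0.164).

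The neuropilins are co-receptors for class 3 semaphorins and for vascular endothelial growth factors. Nrp2 (chr1:62703285-62818695) had 436, 742, 306 and 269 normalized counts in controls and 948, 709.5 and 959 in KO libraries. It was the only called gene with overlapping groups, KO 2 lying below control 2. The log2 fold change was 1.00 (SE 0.32; DESeq2 adjusted p = 0.0471, edgeR adjusted p = 0.261), and 5 of the 18 alternatives kept the call, with an adjusted p of up to 0.325 without KO 1. With a single library left out, the call held only without control 2 and without control 4. Nrp1, at 320, 441, 447 and 379 in controls and 394, 626 and 356 in KO libraries, overlapped between groups, with a log2 fold change of 0.21 (SE 0.25; DESeq2 adjusted p = 0.951).

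Of 17 semaphorins with an adjusted p-value, 1 was called (5.88%, beside 4.51% of all genes tested). Sema3c (chr5:17574281-17730268), a secreted class 3 semaphorin, had 227, 196, 141 and 199 normalized counts in controls and 504, 306 and 386 in KO libraries. The groups did not overlap, and KO 1 was the highest library. The log2 fold change was 1.06 (SE 0.27; DESeq2 adjusted p = 0.00309, edgeR adjusted p = 0.0985). Without KO 1 the log2 fold change was 0.85 and the DESeq2 adjusted p was 0.170.

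Sema3e, a class 3 semaphorin that binds the plexin Plxnd1 without a neuropilin, had 1557, 1634, 1599 and 1675 normalized counts in controls and 1876, 1942 and 1929 in KO libraries. Libraries of a group lay close together and the groups did not overlap, yet the log2 fold change of 0.24 (SE 0.10) did not pass the threshold (DESeq2 adjusted p = 0.169, edgeR adjusted p = 0.272). Its receptor gene Plxnd1 was low, at 20.3 ± 11.6 per kb in controls and 18.2 ± 6.51 in KO libraries. The summed per-kb level of the 7 class 3 semaphorins was 242 ± 7.18 in controls and 308 ± 12.6 in KO libraries, with no overlap, and Sema3e was most of that sum.

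The most abundant semaphorins were membrane-bound. Sema4b had 2552, 2892, 2705 and 2497 normalized counts in controls and 2465, 2560 and 2420 in KO libraries, which overlapped, with a log2 fold change of -0.10 (SE 0.10; DESeq2 adjusted p = 0.912). Sema6d had 2951, 3358, 3574 and 3994 against 2997, 2946 and 2883. Its KO libraries lay close to control 1, the lowest control, and its log2 fold change was -0.24 (SE 0.13; DESeq2 adjusted p = 0.450). Of the 6 class 4 semaphorins, DESeq2 and edgeR called 0, and 1 had an unadjusted DESeq2 p under 0.05. Over all genes tested, DESeq2 called 4.51%, edgeR called 1.05% and 12.2% had such a p, so these counts out of 6 say little. The gene with such a p was Sema4f, whose log2 fold change was -0.42 (DESeq2 adjusted p = 0.0870). Sema6a and Sema6b of class 6 had log2 fold changes of 0.50 and -0.49, with DESeq2 adjusted p-values of 0.0871 and 0.204.

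Ephrins are membrane-bound ligands of Eph receptors. Efnb3 (chr11:69554092-69560205) had 1473, 1356, 1090 and 1203 normalized counts in controls and 2420, 2537 and 2062 in KO libraries. The groups were far apart, the unnumbered KO library again the lowest of the 3. The log2 fold change was 0.87 (SE 0.15; DESeq2 adjusted p = 8.29e-07, edgeR adjusted p = 0.0242), and the call held in all 18 alternatives.

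Efnb1, the most abundant ephrin, had 2174, 2177, 1894 and 1802 normalized counts in controls and 1955, 2014 and 1171 in KO libraries. The groups overlapped, the unnumbered KO library standing below the rest, and the log2 fold change was -0.23 (SE 0.20; DESeq2 adjusted p = 0.83). Efnb1 is X-linked, and within each group it was highest in the libraries with most Xist, controls 1 and 2 and KO 1 and KO 2. The part of sex make-up in the Efnb1 values was not tested. The summed per-kb level of the 3 ephrin-B genes was 1111 ± 104 in controls and 1382 ± 249 in KO libraries, with overlap, and Efnb3 made up 36.1% ± 2.24 of it in controls and 53.7% ± 4.46 in KO libraries. Of the ephrin-A ligands, Efna1 and Efna2 had log2 fold changes of 0.63 and -0.65, neither past the threshold (DESeq2 adjusted p = 0.275 and 0.246).

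Of 11 Eph receptors with an adjusted p-value, 1 was called (9.09%, beside 4.51% of all genes tested). Epha3 (chr16:63543534-63864175) had 64.7, 61.3, 36.6 and 26 normalized counts in controls and 117, 117 and 127 in KO libraries. The KO values were nearly equal and all above the controls. Its log2 fold change was 1.36 (SE 0.43; DESeq2 adjusted p = 0.0391, edgeR adjusted p = 0.201). With at most 171 raw counts in a library, it was among the least abundant of the 10, and 7 of the 18 alternatives kept its call, with an adjusted p of up to 0.286 without KO 1. With a single library left out, the call held only without control 1 and without control 2, and without control 4 the log2 fold change was 1.15 (DESeq2 adjusted p = 0.0514).

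Epha4, which binds ephrins of both classes, was scarce in these libraries. It had 65.8, 21.2, 62.8 and 41.9 normalized counts in controls and 60.6, 68.2 and 8.89 in KO libraries, spread widely within both groups. Its log2 fold change was -0.07 (SE 0.72; DESeq2 adjusted p = 0.999), and its sign changed with the libraries used.

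The 2 most abundant Eph receptors were Ephb2 and Epha7. Ephb2 had 1778, 1572, 1684 and 1555 normalized counts in controls and 1277, 1472 and 985 in KO libraries. Epha7 had 977, 967, 929.5 and 924 in controls and 713, 845 and 784 in KO libraries. For both genes every KO library was below every control, and neither passed the threshold, with log2 fold changes of -0.40 (SE 0.16; DESeq2 adjusted p = 0.161) and -0.28 (SE 0.13; DESeq2 adjusted p = 0.289). Epha1 had a log2 fold change of 0.59 (DESeq2 adjusted p = 0.303).

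**Figure D3:**
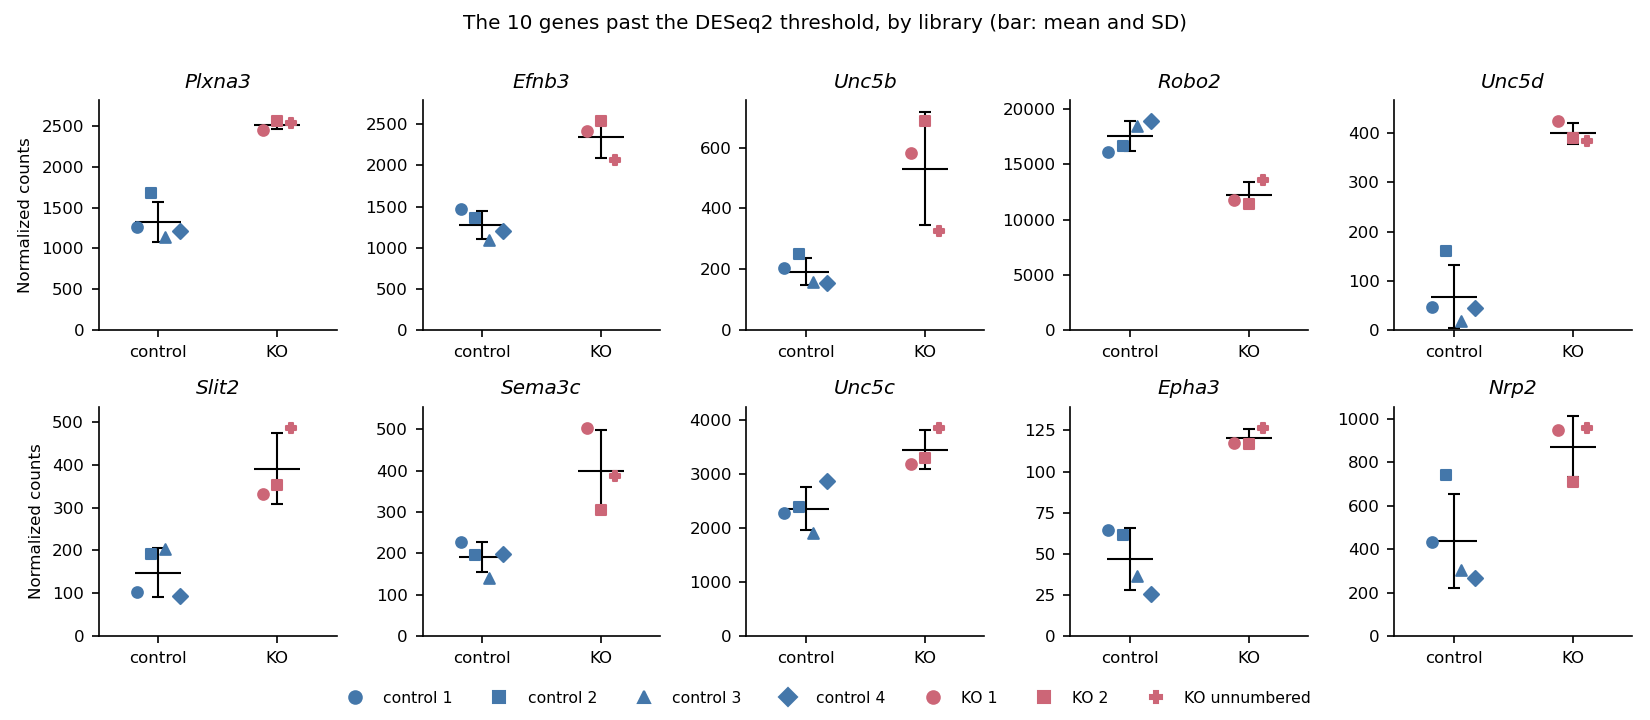
Normalized counts (y axes, from 0) of the 10 called genes in each of 4 control (blue) and 3 KO (red) libraries, with the mean and SD in black and 1 symbol per library. Robo2 is lower in every KO library, 8 genes are higher in every KO library, and in Nrp2 KO 2 lies below control 2.

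**Figure D4:**
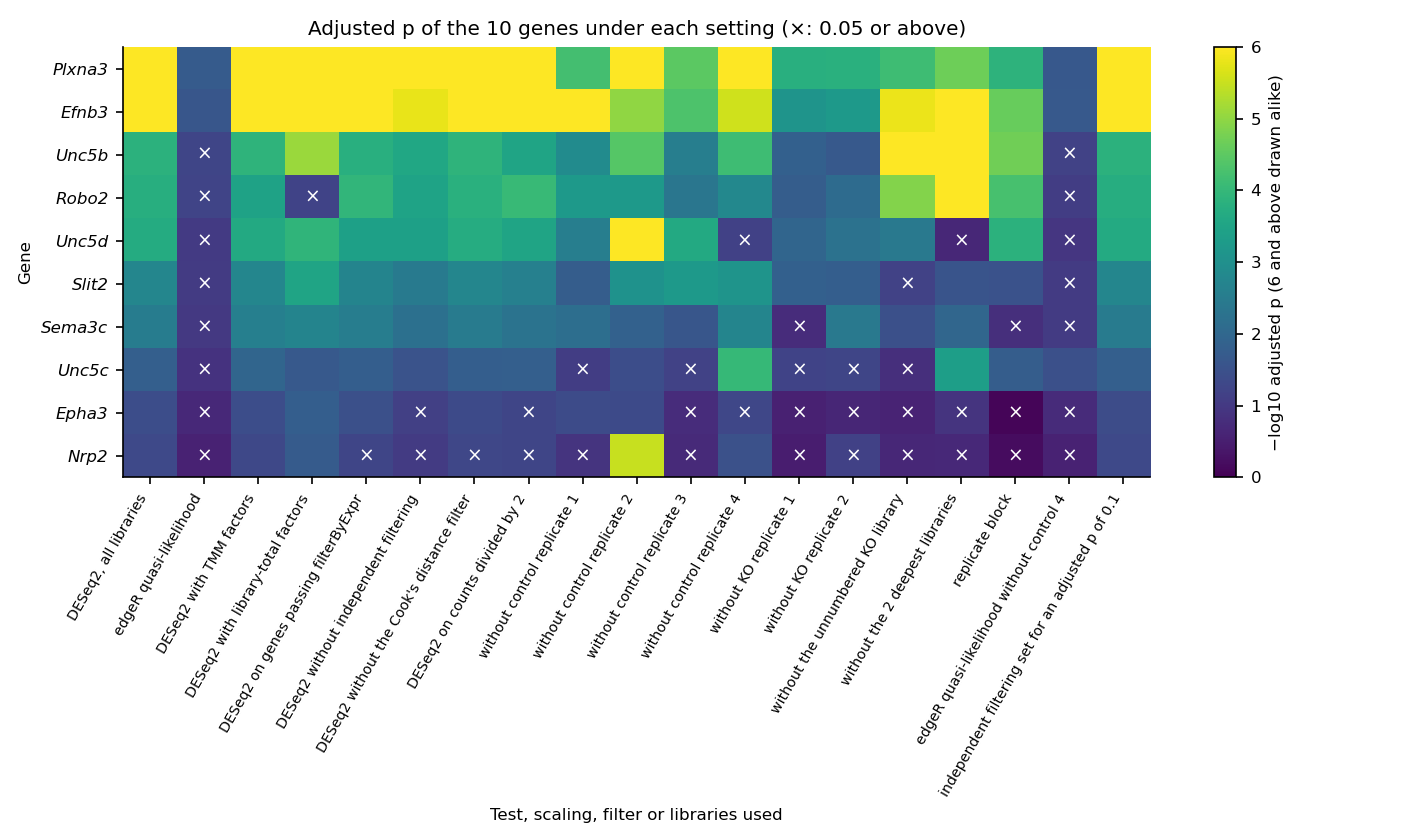
Adjusted p-value (colour, −log10, 6 and above drawn alike) of the 10 called genes (y axis) under DESeq2 with all libraries and under 18 alternatives (x axis), with a cross where it was 0.05 or above. Plxna3 and Efnb3 have no cross, Nrp2 passed in 5 of the 18 and Epha3 in 7.

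The genomic span of a gene was not used in choosing it. The median span of the called genes was 238.3 kb, from 6.11 kb for Efnb3 to 572.9 kb for Unc5d, beside 42.0 kb for the 50 genes not called and 25.6 kb for all tested protein-coding genes. Spans over 100 kb were found in 7 of the 10 called and in 21 of the 50 other genes. Plxna3 and Efnb3, the 2 genes that edgeR called as well, were short, at 15.6 and 6.11 kb. At most 0.617% of the exon bases of a called gene lay under exons of the opposite strand.

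For 61 of the 70 genes, RefSeq promoter windows of GRCm38.p6 were at hand, each from 250 bases before to 50 bases after a gene start. The strings TCAAGTG and TTAAGTG, the core recognised by NK2 homeodomain factors, were searched on both strands of 77 member windows. Of these, 5 windows held 1 (6.49%), those of Efna3, Epha6, Sema3d, Sema4b and Sema4d, beside 5.34% of all 32841 windows. Among the 10 windows of the 8 called genes that had any, 0 held it, which says only that these letters are not in these windows. Member windows held a median of 19 CG pairs, beside 7 over all windows.

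The stretches upstream of 4 called genes are printed because 3 of these genes rose and 1 fell. They also show how CG content differed among them. Only the longest run outside annotated exons within the 250 bases before a gene start is given. For Slit2 this run has 233 bases and stops 17 bases before the start, and the other stretches have 250 bases and reach the start. Each stretch is written 5′ to 3′ on the gene's strand, with CG pairs in capitals, and no binding was measured at any of them. Plxna3 is at chrX:74328816-74329065 (plus strand, 12 CG pairs), Unc5b at chr10:60831582-60831831 (minus strand, 27), and Slit2 at chr5:47982905-47983137 (plus strand, 23). RefSeq lists 3 starts for Robo2, and 2 are shown, at chr16:74411826-74412075 (minus strand, 14) and at chr16:75447294-75447543 (minus strand, 8), the latter upstream of the gene's bounds in the annotation that matches the count table.
Plxna3: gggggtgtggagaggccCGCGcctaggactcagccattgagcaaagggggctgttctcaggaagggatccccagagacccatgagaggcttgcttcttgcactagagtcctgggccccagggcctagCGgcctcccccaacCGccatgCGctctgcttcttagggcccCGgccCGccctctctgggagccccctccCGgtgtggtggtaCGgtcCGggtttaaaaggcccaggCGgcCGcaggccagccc
Unc5b: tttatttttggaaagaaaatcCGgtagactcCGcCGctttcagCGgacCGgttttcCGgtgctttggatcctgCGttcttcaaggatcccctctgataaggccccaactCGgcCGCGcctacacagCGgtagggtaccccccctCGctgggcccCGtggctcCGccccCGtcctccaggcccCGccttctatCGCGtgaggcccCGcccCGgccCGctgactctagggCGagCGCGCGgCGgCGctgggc
Slit2: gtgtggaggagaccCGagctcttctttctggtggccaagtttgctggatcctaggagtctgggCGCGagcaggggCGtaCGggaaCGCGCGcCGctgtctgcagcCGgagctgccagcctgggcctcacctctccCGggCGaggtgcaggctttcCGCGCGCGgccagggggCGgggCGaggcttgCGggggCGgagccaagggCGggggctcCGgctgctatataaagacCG
Robo2 (start within the counted gene): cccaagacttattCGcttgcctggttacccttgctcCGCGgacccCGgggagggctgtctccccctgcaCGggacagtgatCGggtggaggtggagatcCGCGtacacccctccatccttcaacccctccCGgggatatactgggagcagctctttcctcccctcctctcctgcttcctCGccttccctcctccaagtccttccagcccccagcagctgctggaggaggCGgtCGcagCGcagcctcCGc
Robo2 (farther upstream start): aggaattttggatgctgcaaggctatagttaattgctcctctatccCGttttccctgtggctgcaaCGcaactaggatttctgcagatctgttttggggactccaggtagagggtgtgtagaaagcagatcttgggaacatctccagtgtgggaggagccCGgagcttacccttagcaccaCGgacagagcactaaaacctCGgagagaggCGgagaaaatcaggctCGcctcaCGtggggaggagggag

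Markers of the islet cell types differed between the groups. Of 8 alpha cell markers, 6 were called by DESeq2 as lower in KO libraries, and the summed normalized counts of all 8 ran from 6409836 to 8401276 in controls and from 2915210 to 4223396 in KO libraries. Ppy, the hormone of gamma cells, ran from 178540 to 401493 in controls and from 615185 to 783711 in KO libraries, with no overlap. Of the 8 beta cell markers 1 (Iapp) was called higher and 4 had an unadjusted DESeq2 p under 0.05, with a median log2 fold change of 0.39. Their sums ran from 336739 to 690569 in controls and from 529402 to 973010 in KO libraries, whose mean was 134% of the control mean. Of the 4 delta cell markers 1 (Rbp4) was called higher and 3 had an unadjusted DESeq2 p under 0.05, with a median log2 fold change of 0.71. Their sums ran from 196263 to 398978 in controls and from 355301 to 632402 in KO libraries, whose mean was 163% of the control mean. The beta and delta sums overlapped between the groups. The alpha, beta and delta sums came mostly from Gcg, Ins2 and Sst.

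Cell types outside the endocrine lineage express many guidance genes, so their markers are given beside the calls. Over all genes tested, DESeq2 called 4.51%, edgeR called 1.05% and 12.2% had an unadjusted DESeq2 p under 0.05. Of 12 endothelial markers DESeq2 and edgeR called 0 and 2 had an unadjusted DESeq2 p under 0.05. Their sum ran from 523 to 840 in controls and from 548 to 1543 in KO libraries, KO 2 being the highest, with Cldn5 at 0 in 2 libraries and Tie1 in 1. Of 10 mesenchymal markers both tests called 0, 0 had an unadjusted DESeq2 p under 0.05, and the sums were 1430 to 4063 in controls and 2337 to 4309 in KO libraries, with Pdgfra and Lum at 0 in 2 libraries each. Of 10 leukocyte markers DESeq2 called 1 (C1qa), lower. The sums, mostly from C1qa, were 935 to 1483 in controls and 724 to 793 in KO libraries. The median log2 fold change of the list was nevertheless 0.84. Ptprc, C1qb, Adgre1 and Lyz2 were at 0 in 2 libraries each and Cd52 in 5.

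Of 8 Schwann cell markers both tests called 0, and 1 had an unadjusted DESeq2 p under 0.05. Their sums, mostly from Gfra3, were 2237 to 3450 in controls and 2423 to 3462 in KO libraries. Of 7 duct markers DESeq2 called 1 (Spp1), higher, edgeR called 0, and 3 had an unadjusted DESeq2 p under 0.05. Their sums were 10799 to 14818 in controls and 14024 to 14586 in KO libraries, mostly from Krt7. Sox9 ran from 94.1 to 586 in controls and from 682 to 1039 in KO libraries, and Cftr from 2.61 to 37.7 and from 60.6 to 72.3, with log2 fold changes of 1.69 and 1.83 that were not called (DESeq2 adjusted p = 0.169 and 0.166). Of 10 acinar markers both tests called 0, 0 had an unadjusted DESeq2 p under 0.05, and the sums were 216 to 14273 in controls and 1265 to 7310 in KO libraries, with Rbpjl at 0 in 3 libraries. For scale, the called genes Slit2, Sema3c, Nrp2, Unc5b, Unc5d and Epha3 had at most 959 normalized counts in any library. The part of other cell types in the calls was not tested.

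**Figure D5:**
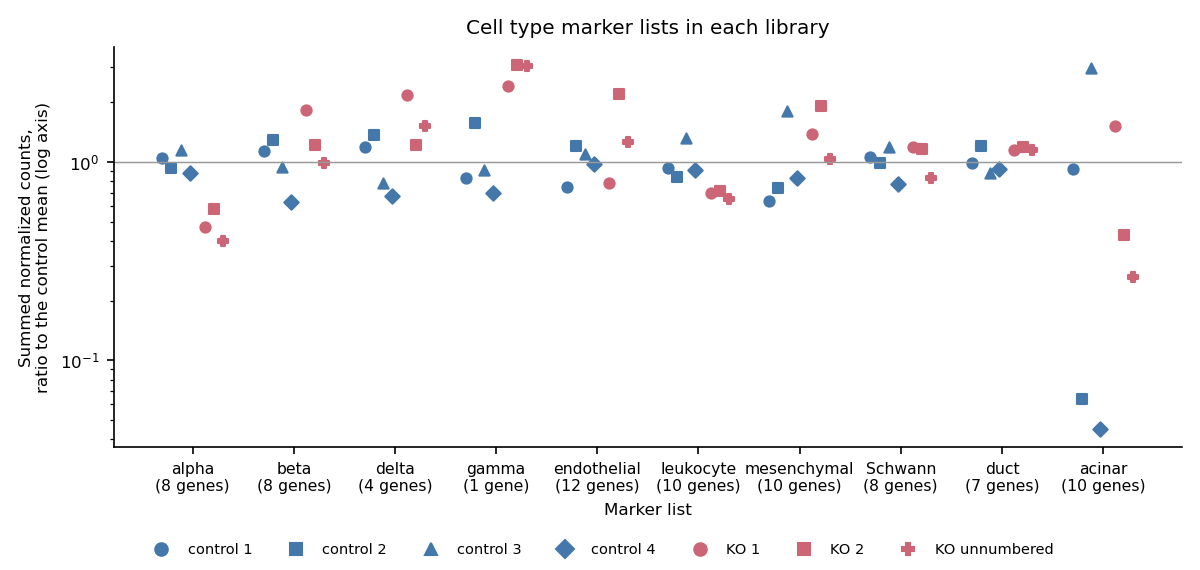
Summed normalized counts of each marker list (x axis) in every library, as a ratio to the control mean (y axis, logarithmic), blue for control and red for KO, 1 symbol per library. The alpha and leukocyte lists are lower and Ppy higher in all 3 KO libraries, while the other lists overlap between the groups.

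Beyond the 70 genes, 109 further genes of the pathway, chosen by role, were looked up: other ligands, other receptors and the proteins that carry the signal inside the cell. This list too was drawn up with earlier results of these data known, so its share of calls is a description. Of the 101 with an adjusted p-value, 15 were called (14.9%, beside 4.51% of all genes tested), 10 higher and 5 lower, and their median log2 fold change was 0.04. The edgeR test called 1 of the 104 pathway genes it tested, Rgma, beside 1.05% of all 19310 genes it tested. Without KO 1, DESeq2 called 8 of the pathway genes. Intracellular effectors contributed 9 of the 15 calls out of 73 tested, ligands 2 out of 6, and receptors 4 out of 22.

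Rgma, a membrane-anchored ligand of Neo1, had 727, 1163, 913 and 726 normalized counts in controls and 256, 353 and 222 in KO libraries. The groups were far apart, and Rgma fell by 1.67 on the log2 scale (SE 0.24; DESeq2 adjusted p = 1.33e-09, edgeR adjusted p = 0.0157). The chemokine Cxcl12 rose by 2.89 (DESeq2 adjusted p = 0.000632) from low levels, 4.34 to 40.1 in controls and 81.5 to 209 in KO libraries, and without KO 2 its DESeq2 adjusted p was 0.0656.

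Of the receptors and adhesion proteins, Lrrc4b, a synaptic adhesion protein, fell by 2.75 on the log2 scale (DESeq2 adjusted p = 0.000169), from 125 to 241 normalized counts in controls to 3.91 to 43.0 in KO libraries. Nrcam, a cell adhesion molecule of the L1 family, fell by 0.86 (DESeq2 adjusted p = 0.0184), with overlapping groups. The integrin subunit Itga1, a collagen receptor, rose by 1.42 (DESeq2 adjusted p = 0.00776). Nrcam lost its call without control 1, control 3, KO 1 or the unnumbered KO library, with an adjusted p of up to 0.236, and Itga1 without KO 1 or KO 2, with an adjusted p of up to 0.193. Dcc, the netrin receptor that attracts axons, had too few counts for an adjusted p-value.

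Among the effectors, both Slit-Robo GTPase-activating proteins that were called rose: Srgap1 by 0.57 (DESeq2 adjusted p = 0.00166) and Srgap3 by 0.74 (DESeq2 adjusted p = 0.00150). Srgap2 of the same family was not called, with normalized counts of 2783 ± 556 (SD, n = 4) for controls, 2224 ± 353 (SD, n = 3) for the KO, and a log2 fold change of -0.32 (DESeq2 adjusted p = 0.500). The kinase Pak1, a target of Rac and Cdc42, rose by 0.90 (DESeq2 adjusted p = 0.0130), the Rac exchange factor Tiam1 by 0.62 (DESeq2 adjusted p = 0.00332), and the actin-binding protein Ablim1 by 0.61 (DESeq2 adjusted p = 0.00223). Trim9, a ubiquitin ligase that binds Dcc, fell by 0.87 (DESeq2 adjusted p = 0.000189), and its relative Trim67 fell by 1.21 (DESeq2 adjusted p = 0.00185). For Srgap1, Srgap3, Trim9 and Trim67 the DESeq2 call held whichever of the 7 libraries was left out. Ablim1 lost it without KO 2 (DESeq2 adjusted p = 0.0583), Tiam1 without KO 1 (DESeq2 adjusted p = 0.117), and Pak1 without control 1, control 3, KO 1 or KO 2, with an adjusted p of up to 0.222. The remaining calls, Vav3, Grip1 and Dscam, were all higher.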

How the data were processed

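RNA of sorted alpha cells was read in 7 libraries, made per the labels' protocols with a strand-specific low-input total RNA kit; another label field calls the molecule polyA RNA, so the RNA fraction is not settled by the labels. The authors deposited 1 table of raw counts per gene. The submitters' processing notes name FastQC, STAR, featureCounts, DESeq2 and mm10; versions, the strand setting and the counting of read pairs are not given in the sources used here. Of the counts from 1 to 10 in a library, 84.4% to 88.9% were even, as when both mates of a pair are counted, so counting noise is larger than the counts imply. Positions and exon lengths came from GENCODE M21 on GRCm38, the assembly also called mm10, and promoters from RefSeq on GRCm38.p6.

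KO was compared with control, without covariates as the series' design text states, by the two-sided Wald test of DESeq2 1.42.0 in R 4.3.3 over the 35178 genes with at least 1 count, with median-of-ratios scaling, independent filtering at 0.05, the Cook's distance filter and Benjamini-Hochberg adjustment over 17571 genes. Normalized counts are counts divided by the size factor, and fold changes are not shrunken. The edgeR 4.0.16 quasi-likelihood test stands beside it. Scripts were tested on simulated data. KO columns 1 and 2 matched a title each; the last KO column is numbered 4, unlike any KO title, and entered the KO group unnumbered. There were 0 unused library columns. By library, the controls in numerical order totalled 49112808, 48750632, 45483504 and 72456557 counts; KO 1 totalled 55003257, KO 2 53717640, and the unnumbered one 65267762.

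The genes named with values are those called, Epha4, Sema3e and Nrp1 (given with the list), and the 2 with the highest per-kb level over all libraries in each of 6 families; genes with an unadjusted p under 0.05 are given by fold change, and up to 12 called pathway genes by adjusted p. Members and lists were chosen with earlier results of these data known. Alternatives were edgeR, other scalings and filters, counts divided by 2, libraries left out and a replicate block.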

Additional observations from a re-analysis of the deposited data

Results flagged for a closer look

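In 2 cases 1 control library stood apart from the other 3. Efna1 had 456 normalized counts in control 2, and Tiam1 had 1723 in the same library, each above the other controls by more than Dixon's test allows at the 95% level for 4 values. Of 43 groups of control values examined, chance would give about 2.15 such cases. Without control 2, Efna1 passed the DESeq2 threshold and Tiam1 kept its call.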

How the results depend on the processing

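Limits: 4 against 3 libraries, unstated pairing and unequal sex make-up bound every value, and depth limits the scarcest genes. With edgeR the counts of calls were 2 for the guidance genes, 1 for the other pathway genes and 203 for all genes, and 3, 1 and 249 with edgeR without control 4, an alternative chosen after seeing the data, as was independent filtering at 0.1. The guidance gene that edgeR called only without control 4 was Unc5c. Leaving out 1 library gave 6 to 11, 8 to 17 and 430 to 907 calls, beside 10, 15 and 792, the lowest each time without KO 1. In all other alternatives these counts stayed within 1.5 times.

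Over 43 named genes and 18 alternatives, 661 of 774 values kept their direction and side of the threshold, 94 lost a call, 8 gained one and 11 changed sign. The log2 fold change of some genes that were not called changed sign. Leaving out 1 library, Epha4 ran from -0.47 to 0.43, the latter without the unnumbered KO library; it was at 0.12 without control 1, 0.09 without control 3, 0.37 without the 2 deepest libraries and 0.76 with the replicate block. Nrp1 ran from -0.082 (without KO 2) to 0.36, Unc5a from -0.043 (without KO 2; -0.035 without KO 1) to 0.17, and Ntn4 from -0.14 (without KO 2; -0.0034 without control 4) to 0.15. Sema4b was at 0.0009 with library totals. The cause was not tested.

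Control and KO share only the numbers 1 and 2. Deviations of same-numbered libraries correlated at 0.121 and 0.196, but no label says that a number marks a shared source, so the libraries share only a number. The replicate block, fitted on those 4 libraries, called 7 guidance genes, 11 other pathway genes and 578 genes in all.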
